A study of Mus musculus with 201 samples.

Results

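Complement genes were followed across the hippocampus of 100 mouse strains. The genes were C4b, C3, Hc, Serping1 and Cd59a, and their members were all probe sets that the array's annotation table lists with one of these symbols. This rule found 5 of 45037 probe sets, which cover 4 of the 5 genes. Serping1 and Hc had 1 probe set each and Cd59a had 2, while its close copy Cd59b, next to it on the chromosome, had none of its own. The single probe set listed with C4b (1418021_at) is also listed with C4a, a close copy of C4b on the same chromosome, so transcripts of the 2 genes cannot be told apart in its value. No probe set was listed with C3, which was not analysed here.

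Total RNA from pooled hippocampi was hybridised to 201 Affymetrix M430 2.0 arrays, most strains having 1 array of female and 1 of male mice. BXD recombinant inbred strains, bred from C57BL/6J and DBA/2J, gave 134 arrays of 68 strains. CXB recombinant inbred strains, bred from BALB/cByJ and C57BL/6ByJ, gave 27 arrays of 13 strains. The reciprocal hybrids B6D2F1 and D2B6F1 gave 6 arrays, the 4 wild-derived inbred strains CAST/EiJ, PWD/PhJ, PWK/PhJ and WSB/EiJ gave 7, and 13 classical inbred strains gave 27. No animal carried a transgene or received an experimental treatment according to the labels. Ages ran from 41 to 196 days (median 62) and each pool held 1 to 4 mice (median 3); most arrays therefore measured a pool and not a single mouse. The arrays fell into 7 labelled batches of 25 to 32 arrays. Between 43.3% and 55.3% of probe sets were labelled present per array. The headers of 7 arrays disagreed with their labels in strain, sex or batch, among them D2B6F1 replicate 1, BXD14 replicates 1 and 2, KK/HIJ replicate 2 and PWD/PhJ replicate 1.

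Levels are scores from the position-dependent nearest-neighbour model (PDNN), a scale that behaves like a logarithm but whose base is not stated, so differences are given in score units and not as folds. A strain value is the strain's score adjusted for sex and batch in one linear model over all arrays. The median residual SD was 0.0782 score units. The markers of hippocampal neurons Prox1, Zbtb20, Neurod6, Wfs1 and C1ql2 were all expressed, with mean scores of 8.28, 9.92, 10.3, 9.58 and 8.99. In such whole tissue, fewer cells of a type and less RNA per cell cannot be told apart. Labels do not say that the arrays of 1 strain came from separately housed litters, so p-values measure the spread between pools.

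Complement is a protein cascade of innate immunity. Its classical arm starts when C1q binds a target and activates C1r and C1s, which cut C4 and C2 into a C3-cutting enzyme, and its terminal arm starts with C5 and ends in a pore in the target membrane. In brain, C1q and C3 are made largely by microglia, C4 by astrocytes and other glia, and the early components are known for tagging synapses for removal. Serping1 encodes C1 inhibitor, which inactivates C1r and C1s. C4b encodes the C4 protein, Hc encodes C5, and Cd59a encodes a membrane protein that blocks the last step of the pore.

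The C4a/C4b probe set was the brightest of the 5, with a mean score of 8.89, above 87.0% of all probe sets. Its 199 values in the fit spanned 8.56 to 9.37 around a median of 8.89. The brighter Cd59a probe set (1418710_at) averaged 8.08 with values from 7.65 to 8.59, and the dimmer one (1429830_a_at) averaged 7.74 with values from 7.40 to 8.21. Serping1 averaged 7.87, close to the middle of all probe sets. Hc averaged 7.55, above only 23.2% of probe sets, and its values spanned 7.35 to 7.82. Scores of different probe sets depend on their own probes, so this order is one of signal and not of transcript number.

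**Figure D1:**
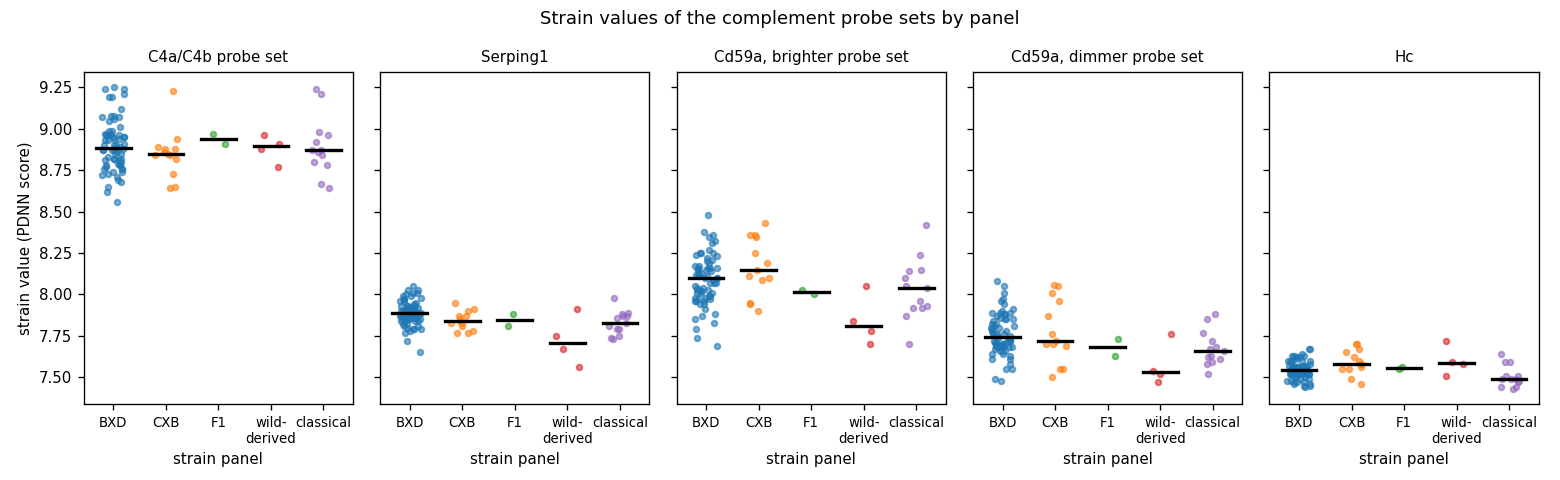
Strain values (PDNN score, vertical axis) of the 5 complement probe sets by strain panel, with 1 point per strain and a bar at each panel's median. The C4a/C4b probe set spanned 8.56 to 9.25 over the BXD strains, whereas Hc spanned 7.44 to 7.67.

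Among the BXD strains, signal of the C4 and Cd59a probe sets differed between strains, while no strain effect passed the test for C1 inhibitor or C5. In every comparison of strains, a sequence variant under a probe cannot be told apart from a change in expression. Strain effects passed the threshold (limma, F test across 45037 probe sets, Benjamini-Hochberg adjusted p under 0.05) for 3 of the 5 probe sets, against 6.95% of all probe sets. The effect had an adjusted p of 5.2e-14 for the C4a/C4b probe set, 1.5e-08 for the brighter Cd59a probe set and 3.2e-04 for the dimmer one. The share of variance that lay between strains, the intraclass correlation, was 0.724, 0.599 and 0.434 for these 3 probe sets, higher than for 98.8%, 97.8% and 96.0% of all probe sets. Serping1 had an intraclass correlation of 0.217 (adjusted p = 0.237). That of Hc was -0.0951 (adjusted p = 1), so arrays of 1 BXD strain were no more alike in Hc than arrays of different strains.

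Over the 68 BXD strains, values of the C4a/C4b probe set spanned 8.56 to 9.25 around a median of 8.89. BXD73a, BXD22 and BXD74 were highest at 9.25 ± 0.059, 9.24 ± 0.059 and 9.24 ± 0.060 (SE). BXD15, BXD69 and BXD86 were lowest at 8.65 ± 0.060, 8.62 ± 0.059 and 8.56 ± 0.085. The 2 arrays of BXD73a had unadjusted scores of 9.22 and 9.211, and those of BXD69 had 8.634 and 8.662. These strains were picked by the same values, so the distance between their arrays is no separate result. Strain values are adjusted for sex and batch but not for age. The BXD22 arrays had unadjusted scores of 9.368 at 196 days and 9.1 at 59 days. Those of BXD74 had 9.359 at 193 days and 9.04 at 79 days. The C4a/C4b strain effect also passed with age as a covariate, but the part of age in the ranks of BXD22 and BXD74 was not tested. BXD86 rests on a single array, with a score of 8.597. The values formed a continuous series: the widest gap between neighbours was 0.065, or 9.5% of the range, between BXD86 and the next strain. In the 62 BXD strains with both sexes, male and female arrays correlated at r = 0.68, a description across strains.

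Cd59a, the pore inhibitor, spanned 7.69 to 8.48 in its brighter probe set, around a median of 8.10. BXD63, BXD94 and BXD98 were highest at 8.48 ± 0.076, 8.38 ± 0.109 and 8.36 ± 0.076 (SE). BXD5, BXD42 and BXD19 were lowest at 7.79 ± 0.076, 7.74 ± 0.081 and 7.69 ± 0.076. The arrays of BXD63 read 8.495 and 8.454, and those of BXD19 read 7.719 and 7.744. The dimmer probe set ran from 7.48 to 8.08, with BXD94 highest and BXD42 lowest. Serping1 spanned 7.65 to 8.05 and Hc 7.44 to 7.67, both narrower ranges. The lowest Serping1 strain, BXD14, is one whose array headers disagree with their labels.

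**Figure D2:**
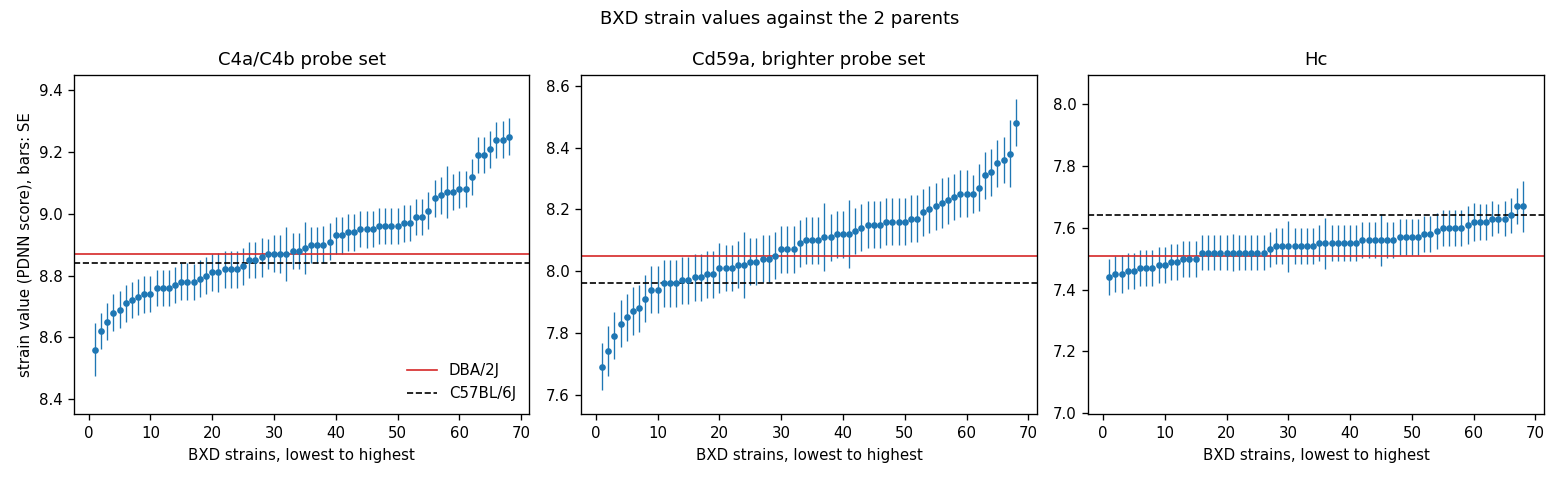
The 68 BXD strains ordered from lowest to highest strain value (PDNN score, bars: SE) for the C4a/C4b probe set, the brighter Cd59a probe set and Hc, with lines at DBA/2J and C57BL/6J. All 3 vertical axes cover the same width. The C4 and Cd59a series run well past both parental lines, and the Hc series is nearly flat.

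The BXD parents themselves did not differ detectably in these genes. At the C4a/C4b probe set the 2 DBA/2J arrays read 8.848 and 8.803, against 8.827, 8.9 and 8.759 in the 3 C57BL/6J arrays, and the groups overlapped. The adjusted difference, DBA/2J minus C57BL/6J, was 0.032 ± 0.077 (SE, limma adjusted p = 0.909). It was 0.086 ± 0.099 for the brighter Cd59a probe set (adjusted p = 0.766) and -0.039 ± 0.099 for the dimmer one (adjusted p = 0.916). Serping1 gave -0.141 ± 0.076 (adjusted p = 0.337). None of the 5 probe sets passed this contrast, nor had an unadjusted p under 0.05, and 7.24% of all probe sets passed it.

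Hc is known as the gene that is defective in DBA/2J, A/J and AKR/J mice, which lack circulating C5. The Hc arrays read 7.376 and 7.587 in DBA/2J, against 7.75, 7.525 and 7.624 in C57BL/6J, and the groups overlapped. The difference was -0.129 ± 0.075 (limma adjusted p = 0.399). Strain values of A/J and AKR/J were 7.47 and 7.43, and the other classical strains, which were not sorted here by Hc allele, spanned 7.44 to 7.64.

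BXD strain values lay on both sides of the parental values. At the C4a/C4b probe set 36 of 68 BXD strains lay above both parents, 7 between them and 25 below both. At the brighter Cd59a probe set 40 lay above both parents, 16 between and 12 below both. Serping1, whose BXD strain effect did not pass, had 40 strains above both parents, 26 between and 2 below both. For Hc, whose parental values were 7.51 in DBA/2J and 7.64 in C57BL/6J, 50 strains lay between. Where parental values are close, few strains can lie between them whether or not strains differ, so the counts are a description. These counts take each value without its error, and a strain within about 1 SE of a parent cannot be placed.

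The reciprocal hybrids of the same parents did not depart detectably from the parental midpoint. B6D2F1 and D2B6F1 had strain values of 8.97 ± 0.060 and 8.91 ± 0.049 at the C4a/C4b probe set, where DBA/2J and C57BL/6J had 8.87 ± 0.060 and 8.84 ± 0.049 (SE). The hybrid mean minus the parental mean was 0.082 ± 0.054 (limma adjusted p = 1). For the other 4 probe sets it lay between -0.023 and 0.041. No probe set on the array passed this contrast (limma; 0% called, 1505 at an unadjusted p under 0.05), and the hybrids share their control arrays with the parental contrast.

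In the CXB panel the same 3 probe sets passed as in the BXD panel, against 4.2% of all probe sets. The dimmer Cd59a probe set had the highest intraclass correlation of the 3, 0.736 (limma adjusted p = 6.9e-07), against 0.712 for the C4a/C4b probe set (adjusted p = 4.9e-06) and 0.676 for the brighter Cd59a probe set (adjusted p = 3.8e-05). With the 27 CXB arrays alone in the fit, an alternative added after the data were seen, none of the 5 passed (limma; 492 probe sets did overall), with adjusted p of 0.0561, 0.069 and 0.226 in the same order. At an unadjusted p under 0.05 these 3 probe sets passed in that fit too.

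The C4 call in the CXB panel was lost without 1 strain. The CXB7 arrays had C4a/C4b scores of 9.29 and 9.275 and a strain value of 9.23 ± 0.060, and the next strain, CXB4, had 8.94 ± 0.060. The gap of 0.299 made up 50.6% of the panel's range, whose lowest strain was CXB11 at 8.64 ± 0.060. Without CXB7, also tried after the data were seen, the C4a/C4b strain effect had an F of 2.53 (limma adjusted p = 0.129), against 6.2 with it. The adjusted p of the brighter and dimmer Cd59a probe sets was then 8.3e-05 and 1.4e-06.

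Cd59a split the CXB strains more evenly. At the brighter probe set CXB2, CXB4 and CXB6 were highest at 8.43, 8.36 and 8.36, and CXB9, CXB12 and CXB13 were lowest at 7.95, 7.94 and 7.90, each with an SE of 0.076 or 0.077. The 2 arrays of CXB6 read 8.399 and 8.4, and those of CXB13 read 7.978 and 7.918. The same 3 strains were lowest at the dimmer probe set, at 7.55, 7.50 and 7.55, below a gap of 0.144 to the next strain. Serping1 had adjusted p = 0.681 and Hc adjusted p = 0.404 in this panel (limma).

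Cd59a was the member that differed between the parental stocks of the CXB panel, taken with the matching substrains. The brighter probe set read 8.312 in the BALB/cByJ array and 8.22, 8.21 and 8.084 in the BALB/cJ arrays, against 7.743 and 8.119 in C57BL/6ByJ and 7.78, 8.125 and 7.994 in C57BL/6J. BALB arrays were generally higher, but the highest C57BL/6 arrays overlapped the lowest BALB array. BALB strains minus C57BL/6 strains was 0.283 ± 0.078 (SE, limma adjusted p = 0.015), and this was the 1 of 5 probe sets that passed, against 5.12% of all. The dimmer Cd59a probe set gave 0.077 ± 0.078 (adjusted p = 0.614), so the 2 probe sets of the gene did not give the same call.

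That call was not stable to single arrays. Without C57BL/6J replicate 1 the difference was 0.242 (adjusted p = 0.0585), and without C57BL/6ByJ replicate 1 it was 0.191 (adjusted p = 0.179). BALB/cJ replicates 1 and 2 had labelled RMA outlier shares of 0.12 and 0.1 and Actb 3'/5' ratios of 3.3 and 3.1, where all arrays had medians of 0.03 and 1.34, and a higher ratio goes with more degraded RNA. Without arrays of an outlier share of 0.1 or more the difference was 0.267 (adjusted p = 0.115), and with the mean of 7 choroid plexus markers as a covariate it was 0.159 (adjusted p = 0.0546). This contrast shares its C57BL/6J arrays with the DBA/2J contrast. The other members gave 0.088 ± 0.061 for C4a/C4b, -0.070 ± 0.060 for Serping1 and -0.123 ± 0.060 for Hc.

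Across the 17 inbred strains all 5 probe sets passed the strain-effect test, but 43.5% of all probe sets did so too. The C4a/C4b and brighter Cd59a probe sets had intraclass correlations of 0.761 and 0.721 (limma adjusted p = 1.4e-09 and 4.4e-08), above those of 95.9% and 94.4% of probe sets. Serping1, the dimmer Cd59a probe set and Hc had 0.400, 0.326 and 0.330 (adjusted p = 0.0166, 0.0463 and 0.0474). Without the arrays that the labels give an RMA outlier share of 0.1 or more, only the C4a/C4b probe set passed (adjusted p = 0.00418), and the brighter Cd59a probe set had an adjusted p of 0.148. Without the arrays whose headers disagree with their labels, 3 of the 5 passed.

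At the C4a/C4b probe set NZO/HlLtJ and NOD/LtJ stood above the other inbred strains at 9.24 ± 0.060 and 9.21 ± 0.060 (SE). Their arrays read 9.2 and 9.228 in NZO/HlLtJ and 9.18 and 9.194 in NOD/LtJ. Both NOD/LtJ arrays were among those of poorer RNA quality by their labels, with Actb 3'/5' ratios of 2.89 and 3.09 and RMA outlier shares of 0.14 and 0.1, and so was NZO/HlLtJ replicate 2 (3.71 and 0.19). NZO/HlLtJ replicate 1, which read 9.2, had a ratio of 1.27 and a share of 0.03. A/J followed at 8.98 ± 0.060, and this step of 0.230 ± 0.085 was the only one between neighbours in the order that exceeded 2 SE of the difference. Below A/J came PWK/PhJ (8.96), BALB/cJ (8.96), C3H/HeJ (8.92), CAST/EiJ (8.91), PWD/PhJ (8.88), DBA/2J (8.87), LG/J (8.87), BALB/cByJ (8.86), C57BL/6J (8.84), C57BL/6ByJ (8.80), KK/HIJ (8.78) and WSB/EiJ (8.77), with steps of less than 1 SE of the difference from A/J down to WSB/EiJ. The step of 0.107 ± 0.085 below WSB/EiJ exceeded 1 SE. The lowest strains were 129S1/SvImJ at 8.67 ± 0.060 and AKR/J at 8.64 ± 0.060, with array scores of 8.584 and 8.698 and of 8.61 and 8.625.

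**Figure D3:**
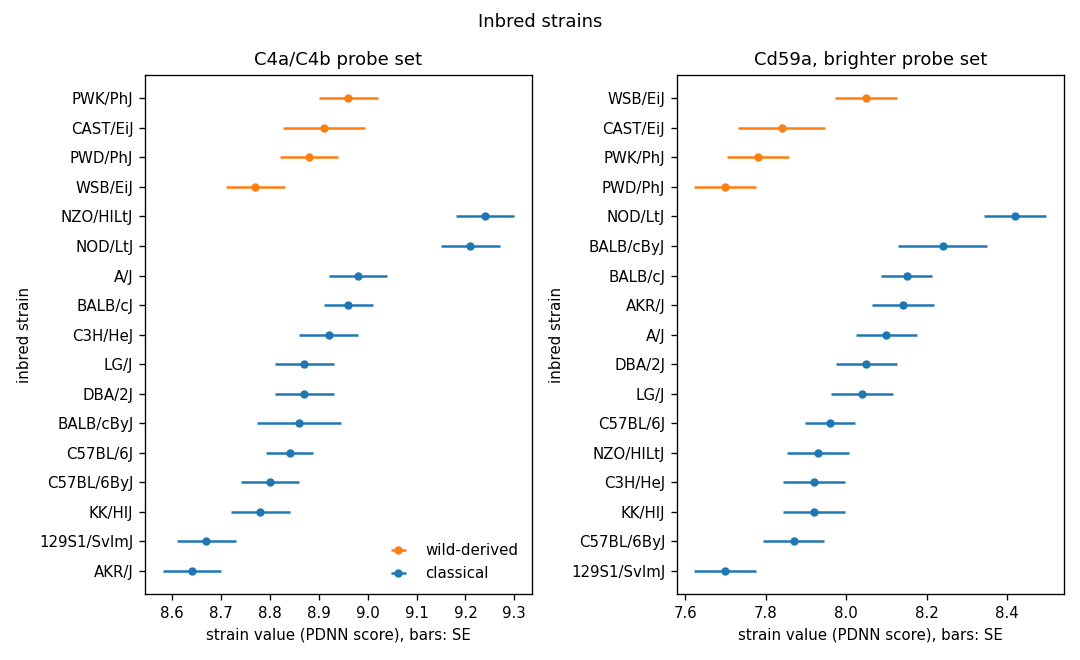
Strain values (PDNN score, horizontal axis, bars: SE) of the 4 wild-derived and 13 classical inbred strains, for the C4a/C4b and the brighter Cd59a probe sets. NZO/HlLtJ and NOD/LtJ stand apart at the C4a/C4b probe set, and NOD/LtJ is highest at Cd59a.

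At the brighter Cd59a probe set NOD/LtJ was also highest, at 8.42 ± 0.077, with arrays of 8.331 and 8.534, the same 2 arrays with high Actb 3'/5' ratios. Leaving out arrays of an outlier share of 0.1 or more removes NOD/LtJ whole, and the inbred Cd59a effect then had the adjusted p of 0.148 given above; the part of RNA quality in it was not tested. BALB/cByJ followed at 8.24 ± 0.110 and BALB/cJ at 8.15 ± 0.064. PWD/PhJ and 129S1/SvImJ were lowest, both at 7.70 ± 0.077, and the 129S1/SvImJ arrays read 7.65 and 7.767. No step between neighbours exceeded 2 SE of the difference. NZO/HlLtJ, the highest strain at C4a/C4b, had 7.93 here, and AKR/J, the lowest there, had 8.14, so the inbred orders of the 2 genes were not the same. NOD/LtJ was the highest classical strain for Serping1 as well, at 7.98 ± 0.059, and CAST/EiJ was the lowest inbred strain at 7.56 ± 0.083.

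As a group the 4 wild-derived strains did not pass the test against the 13 classical ones in any member (2 of 5 had an unadjusted p under 0.05), a contrast that 3.9% of all probe sets passed. The brighter Cd59a probe set had medians of 7.81 (7.70 to 8.05) in wild-derived and 8.04 (7.70 to 8.42) in classical strains, with overlapping ranges, and a difference of -0.190 ± 0.095 (SE, limma over strain values, adjusted p = 0.205). Serping1 had medians of 7.71 (7.56 to 7.91) in wild-derived and 7.83 (7.73 to 7.98) in classical strains and a difference of -0.106 ± 0.050 (adjusted p = 0.183). WSB/EiJ, at 7.91, was the highest of the 4 wild-derived strains for Serping1, and without it the difference was -0.168 (adjusted p = 0.0385). Hc had medians of 7.58 (7.51 to 7.72) in wild-derived and 7.49 (7.43 to 7.64) in classical strains and a difference of 0.095 ± 0.039 (adjusted p = 0.138). At the C4a/C4b probe set the difference was -0.015 ± 0.087 (adjusted p = 0.932). Variants under the probes cannot be told apart from expression in this contrast either.

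Neither sex nor age passed a test in any member. The C4a/C4b probe set averaged 8.89 ± 0.161 in the 98 male and 8.89 ± 0.162 in the 101 female arrays (SD), and male minus female was -0.017 ± 0.013 (SE, limma adjusted p = 1). The other 4 differences lay between -0.015 and 0.014, and 0.118% of all probe sets passed. The C4a/C4b slope with age was 0.0139 ± 0.0048 score units per 10 days (SE), with an unadjusted p of 0.00508 and an adjusted p of 1. The other 4 slopes lay between 0.0030 and 0.0113, all with adjusted p = 1, and 0.00222% of all probe sets passed.

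The 2 Cd59a probe sets were closely correlated over the strains of the BXD and CXB panels. Over the 68 BXD strain values they correlated at Pearson r = 0.88 and Spearman rho = 0.84 (permutation p = 1.0e-05 for each, the smallest that 100000 permutations can give; adjusted over 10 pairs, 1.0e-04). Without the 2 strains farthest from the median, r was 0.87. In the 13 CXB strains r was 0.93, given as a description. No correlation was computed over the inbred strains, where the BALB contrast passed at the brighter probe set only. Both probe sets share arrays and strain terms, so errors of the arrays are shared as well.

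**Figure D4:**
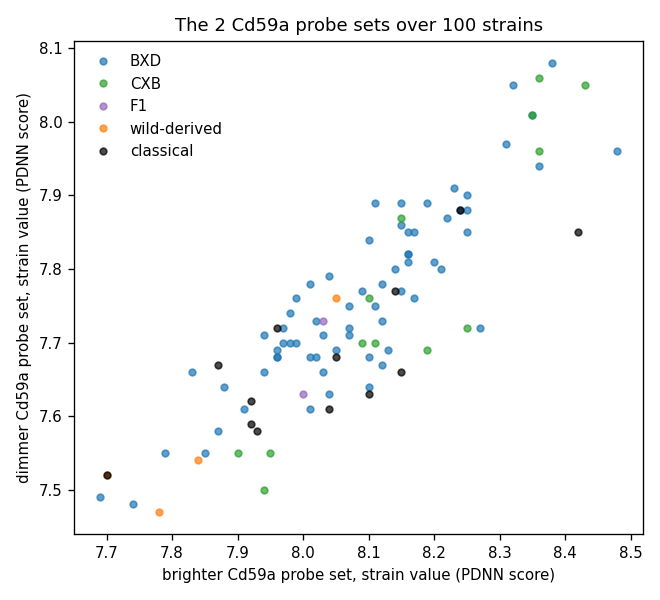
Strain values (PDNN score) of the brighter Cd59a probe set (horizontal axis) and the dimmer one (vertical axis), with 1 point per strain, coloured by panel. The probe sets correlated at r = 0.88 in the 68 BXD strains and 0.93 in the 13 CXB strains, and no r was computed for the other panels.

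Correlations between different members were weaker over the BXD strains. The C4a/C4b and Serping1 probe sets had r = 0.30 and rho = 0.33 over the BXD strains (permutation p adjusted over the 10 pairs 0.0504 for r and 0.0337 for rho), and r was 0.26 without the 2 farthest strains. Serping1 and the dimmer Cd59a probe set also had r = 0.30 (adjusted p = 0.0504). C4a/C4b and the brighter Cd59a probe set had r = 0.22 (adjusted p = 0.167). Correlations with Hc lay between -0.10 and 0.00. Over the 13 CXB strains, as a description, r was 0.73 and 0.71 for Serping1 with the brighter and dimmer Cd59a probe sets, 0.44 and 0.41 for C4a/C4b with them, and 0.35 for C4a/C4b with Serping1.

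The genes whose BXD pattern was most like that of C4 lay mostly on its own chromosome. C4b lies on chromosome 17 in RefSeq, within the major histocompatibility complex. The 5 genes with the largest absolute r over the 68 strain values were H2-Ab1 (r = 0.74) and H2-Aa (r = 0.64), chains of an MHC class II molecule, H2-D1 (r = 0.67), an MHC class I heavy chain, H2-Ke6 (r = 0.69), a hydroxysteroid dehydrogenase gene, and Mmut (r = 0.64), encoding methylmalonyl-CoA mutase. All 5 lie on chromosome 17. The BXD strain effect itself did not pass for H2-Aa (limma adjusted p = 0.888) or Mmut (adjusted p = 0.1). In the 13 CXB strains r with C4a/C4b was -0.04 for H2-Ab1 and -0.05 for H2-Aa, against 0.42 for H2-Ke6 and Mmut and 0.32 for H2-D1. Of the 50 most alike probe sets, a number chosen after the 5 had been seen, 28 lay on chromosome 17 (56.0%), which holds 4.31% of all single-gene probe sets.

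The genes most like Cd59a lay mostly on another chromosome than Cd59a itself, which is on chromosome 2. They were Mtrr (r = 0.67), encoding methionine synthase reductase, Ptch1 (r = -0.64), the Hedgehog receptor gene, Zfp729a (r = 0.63), a zinc finger gene, Tgfbi (r = 0.62), encoding a matrix protein, and Fzd4 (r = 0.60), a Wnt receptor gene. The first 4 lie on chromosome 13, and Fzd4, whose BXD strain effect did not pass (limma adjusted p = 0.464), on chromosome 7. In CXB strains r was 0.44 for Mtrr, -0.54 for Ptch1 and 0.58 for Tgfbi, against 0.03 for Zfp729a and 0.01 for Fzd4. Of the 50 most alike probe sets 19 lay on chromosome 13 (38.0%, against 3.95% of all). Neighbouring genes are inherited together in recombinant inbred strains, so these counts are not independent genes.

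**Figure D5:**
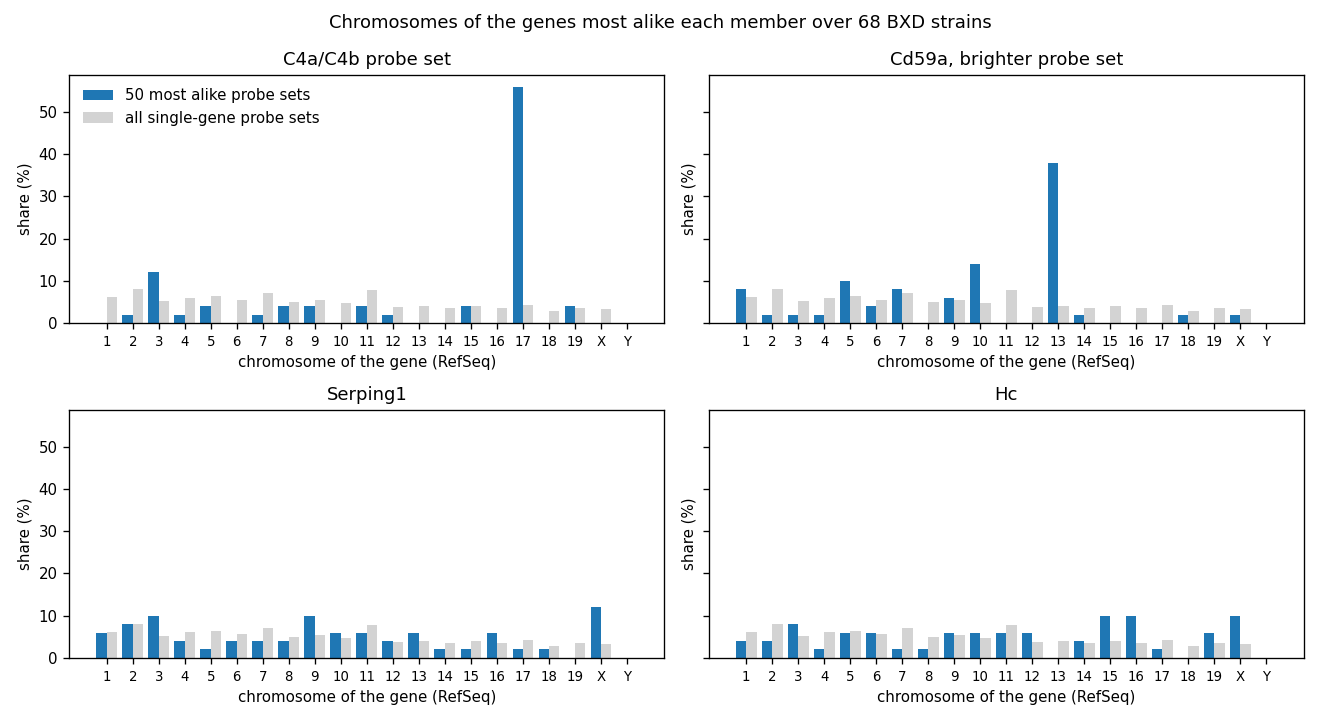
Share (%) of the 50 probe sets most alike each member over the BXD strains, by the chromosome of their gene, beside the share of all single-gene probe sets. C4a/C4b has 56.0% on chromosome 17 and Cd59a 38.0% on chromosome 13, and the shares of Serping1 and Hc are spread over many chromosomes.

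The likenesses of Serping1 and Hc were spread over the genome. Serping1 was most like Cp (r = 0.71), encoding the copper protein ceruloplasmin, Itih5 (r = 0.69), Msn (r = 0.67), encoding moesin, Col4a5 (r = 0.65), a basement membrane collagen chain, and Vps26c (r = 0.64), on chromosomes 3, 2, X, X and 16. Hc was most like P2ry10b (r = 0.80), Mroh2b (r = 0.80), Ptgfr (r = 0.79), Syp (r = 0.79) and Atp6v0d2 (r = 0.79). None of these 10 genes had a BXD strain effect that passed (limma, adjusted p of 0.263 or more). In the 13 CXB strains, as a description, r was 0.35 to 0.84 for the Serping1 list and 0.80 to 0.88 for the Hc list. Probe sets of the Hc list had mean scores of 7.54 to 7.68, and Hc averaged 7.55. Hc itself had a BXD intraclass correlation of -0.0951. Members and listed genes were read from the same arrays, so array errors are shared. The part of these errors in the correlations was not tested.

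Marker levels of other cell types correlated with some members. Over the BXD strains 45 correlations of 5 probe sets with 9 marker lists were computed. Both Cd59a probe sets followed the choroid plexus list, whose mean of 7 genes spanned 7.83 to 9.30: r was 0.45 for the brighter (rho = 0.35, permutation p of r adjusted over the 45, 0.00135) and 0.46 for the dimmer (rho = 0.39, adjusted p = 6.7e-04), or 0.38 and 0.40 without the 2 farthest strains. The brighter one also followed the astrocyte list (r = 0.32, rho = 0.33, adjusted p = 0.0437, r = 0.29 without the 2 farthest strains), and the dimmer one the meninges and fibroblast list (r = 0.33, rho = 0.31, adjusted p = 0.0422, r = 0.24 without them). Serping1 followed the astrocyte list (r = 0.40, rho = 0.34, adjusted p = 0.00747), the meninges and fibroblast list (r = 0.40, rho = 0.42, adjusted p = 0.00747) and the endothelium list (r = 0.31, rho = 0.30, adjusted p = 0.0492), with r of 0.26, 0.38 and 0.30 without the 2 farthest strains. Hc went against the astrocyte list (r = -0.50, rho = -0.44, adjusted p = 6.7e-04, r = -0.42 without the 2 farthest strains) and the neuron list (r = -0.33, rho = -0.32, adjusted p = 0.0422, r = -0.25 without them). Members and marker lists were read from the same arrays, so array errors are shared, and permuting strains does not remove them. This weighs most on Serping1 and Hc, whose BXD strain effects did not pass.

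The C4a/C4b probe set passed with none of the 9 lists over the BXD strains: r was 0.26 with astrocytes (adjusted p = 0.0883), -0.18 with microglia (adjusted p = 0.215) and 0.29 with choroid plexus (adjusted p = 0.063). Over the 13 CXB strains, as a description, r was 0.71 with astrocytes, 0.68 with endothelium, 0.56 with microglia and 0.17 with choroid plexus. Its BXD strain effect was about as strong with each of 6 marker means as a covariate in the model, with adjusted p from 5.8e-14 to 2.2e-13 in the BXD panel. The brighter Cd59a probe set had adjusted p from 1.8e-17 to 3.4e-08 over the same 6 covariates, the smallest with choroid plexus. Of these covariates 5, all but choroid plexus, were added after the data were seen. With the meninges and fibroblast mean as a covariate Serping1 passed in the BXD panel as well (adjusted p = 0.0406).

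Of the 40 other complement genes listed by role, 34 had a single-gene probe set. In the BXD panel 3 of the 34 had a strain effect (8.82% of them, against 6.95% of all), in the CXB panel 4 (11.8%, against 4.2% of all) and among inbred strains 16 (47.1%, against 43.5% of all). The inbred share is close to that of all probe sets. In the contrast of BALB with C57BL/6 strains 3 of the 34 passed (8.82%, against 5.12% of all). The median intraclass correlation of the 34 was -0.00132 in the BXD panel and 0.0876 in the CXB panel, where all probe sets had medians of -0.0167 and 0.0929.

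In the BXD panel C1qb and C1qc, encoding chains of the molecule that starts the classical arm, had the highest intraclass correlations of the 34. C1qb ranged from 8.53 to 9.11 over BXD strains (intraclass correlation 0.458, limma adjusted p = 1.1e-04) and C1qc from 7.94 to 8.84 (0.426, adjusted p = 3.5e-04). Both passed in the CXB panel as well (adjusted p = 1.9e-04 and 0.033), but not without CXB7 (0.0679 and 0.314). With MAS5 scores C1qb did not pass in either panel (0.0609 and 0.136). In the CXB panel C1qc was also lost with RMA scores (0.0964), MAS5 scores (0.165) and CXB arrays alone (0.109). C1qa did not pass in either panel (adjusted p = 0.313 and 0.633). C1qb and C1qc fell in BALB strains: C1qb had strain values of 8.53 in BALB/cByJ and 8.64 in BALB/cJ, against 9.00 in C57BL/6ByJ and 8.90 in C57BL/6J, a difference of -0.366 ± 0.077 (SE, adjusted p = 6.1e-04). C1qc had 8.04 and 8.14 in the same BALB strains, against 8.60 and 8.62 in the C57BL/6 strains, a difference of -0.517 ± 0.133 (adjusted p = 0.00796). The RMA columns labelled C57BL/6J match BALB/cJ arrays best, so the RMA contrast (limma adjusted p = 0.538 and 0.67) cannot test these calls. Without those columns only C57BL/6ByJ was left on the C57BL/6 side. Neither call passed then, with RMA differences of -0.933 ± 0.317 and -1.23 ± 0.484 (SE, adjusted p = 0.17 and 0.294). The C1qc difference was -0.343 (adjusted p = 0.212) without arrays of an outlier share of 0.1 or more, and its adjusted p was 0.0627 with MAS5 scores. While the brighter Cd59a probe set was higher in BALB strains, it correlated positively with C1qb and C1qc over the 13 CXB strains (r = 0.71 and 0.70), as did the dimmer one (r = 0.78 and 0.77). Over the BXD strains these 4 correlations lay between -0.20 and -0.06.

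C1qb and C1qc did not follow C4 over the BXD strains, with r of 0.21 and -0.01, although r was 0.62 and 0.61 over the 13 CXB strains. These are descriptions across strains that share arrays. Masp2, a protease of the lectin arm, had a CXB strain effect (adjusted p = 0.00197), lost with MAS5 scores (0.0659) and with CXB arrays alone (0.57). It was higher in BALB strains by 0.139 ± 0.044 (limma adjusted p = 0.0438). This call was lost with MAS5 scores (0.886), without a batch term (0.0619) and without pools older than 100 days (0.054). It was also lost with the choroid plexus covariate (0.055) and without any 1 of 6 arrays. The RMA value (0.494) uses the mismatched C57BL/6J columns and cannot test the call, and without them the adjusted p was 0.392. Without C57BL/6ByJ replicate 2 the difference was 0.092 (adjusted p = 0.383).

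Among the convertase genes 0 of 3 measured passed in the BXD or CXB panel (limma, 0 at an unadjusted p under 0.05). Of all probe sets 6.95% and 4.2% passed, and a list this short cannot show a lower share. Among inbred strains 2 of the 3 passed (66.7%, against 43.5% of all). C2, which pairs with C4 in the C3-cutting enzyme, fell in DBA/2J against C57BL/6J by 0.173 ± 0.048 (limma adjusted p = 0.0117). Its strain values were 7.81 in DBA/2J and 7.99 in C57BL/6J. Of 9 measured regulators Csmd1, encoding a synaptic membrane protein with complement control domains, was higher in DBA/2J by 0.304 ± 0.099 (adjusted p = 0.0401), at 8.55 in DBA/2J and 8.24 in C57BL/6J. C2 and Csmd1 were the 2 of the 34 genes that passed this contrast (5.88%, against 7.24% of all probe sets), so the share was no higher than that of all. Neither call held with MAS5 scores (adjusted p = 0.922 for C2 and 0.407 for Csmd1) or without a batch term (0.151 and 0.659). The RMA value for C2 (0.406) cannot test its call, because the RMA columns labelled C57BL/6J match BALB/cJ arrays best. With single arrays left out, the Csmd1 adjusted p ranged from 0.0672 to 0.377 and that of C2 reached 0.121.

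Clu, a secreted inhibitor of the pore with a mean score of 11.2, had a strain effect in the CXB panel (adjusted p = 0.0107) but not in the BXD panel (adjusted p = 1), and the difference between panels was not tested. The CXB call was lost with RMA scores (adjusted p = 0.189), MAS5 scores (0.87), an SD of 2 (0.368), quantile normalization (0.476), the astrocyte mean as a covariate (0.142) and CXB arrays alone (0.781). Of 5 terminal pore genes 0 passed in either panel (limma, 0 at an unadjusted p under 0.05), where shares of 6.95% and 4.2% of all probe sets would give less than 1 gene. Of 7 receptors Itgb2, the shared chain of complement receptors 3 and 4, passed in the BXD panel (adjusted p = 0.0102), over a range of 7.43 to 7.70. This call was lost with MAS5 scores (0.703), BXD arrays alone (0.0947), and the microglia mean (0.121) or the endothelium mean (0.182) as a covariate.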

How the data were processed

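The deposited PDNN, RMA and MAS5 tables hold scores per probe set and array that, per the series' design text, the authors adjusted to a mean of 8 and a standard deviation of 2 units; the PDNN scores had smaller SDs and were used as deposited. Probe sets were named from the platform annotation, and chromosomes from RefSeq. Over 45037 probe sets (64 controls left out), limma 3.58.1 in R 4.3.3 fitted strain, sex and batch to 199 columns: the mixed-sex BXD9 pool was dropped and a technical duplicate of the B6D2F1 male RNA averaged, leaving 92 residual degrees of freedom. Panels were tested with F tests, pairs of groups with contrasts, and wild-derived against classical strains with a second limma fit over strain values; p-values were two-sided for contrasts and Benjamini-Hochberg adjusted across the whole array (threshold 0.05). The test was tried on simulated data. Correlations used permutation tests.

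The text names all member probe sets, the 3 highest and 3 lowest strains of a panel, all inbred strains, and the 5 genes most like each member. Other complement genes are named if they passed a test besides the inbred strain effect. Those that passed only the inbred strain effect were counted and not named. C1qa, outside this rule, was added as the remaining C1q chain. Members, lists and tests were chosen with earlier results of these data known. Alternatives were RMA or MAS5 scores, rescaling, quantile normalization, filters, covariates and left-out arrays. The number of arrays limits the precision.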

Additional observations from a re-analysis of the deposited data

How the results depend on the processing

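In the BXD panel 3 of 5 member probe sets passed under every alternative with all 5 tested, except that 4 passed with the meninges and fibroblast mean as a covariate. In the CXB panel 3 passed under most alternatives, 2 with MAS5 scores or without CXB7, 2 of the 2 tested at a mean of 8 or more, and 0 with CXB arrays alone in the fit. The inbred count of 5 changed most: it was 1 without arrays of RMA outlier share 0.1 or more, 2 with RMA scores, MAS5 scores, inbred arrays alone in the fit, classical strains only or the astrocyte mean as a covariate, 2 of the 2 tested at a mean of 8 or more, and 3 with RMA scores without mismatched columns, an SD of 2, quantile normalization, no batch term, the microglia mean as a covariate or without arrays with a disagreeing header. The BALB count of 1 was 0 with RMA scores, with or without the mismatched columns, MAS5 scores, the choroid plexus covariate, or without arrays of high RMA outlier share. The causes were not tested. No called difference reversed. Of 744 member differences that passed under neither setting, 41 had the other sign. For strain effects, sex and age, only 20 arrays drawn at random were left out, 1 at a time, and no CXB7 array was among them. They gave 3 to 3 in the BXD and CXB panels, 4 to 5 among inbred strains, and 0 to 0 for sex and age. Leaving out each array of the compared strains gave 0 to 1 for BALB and 0 to 0 for the parental and hybrid comparisons. Leaving out single strains gave 0 to 1 for wild-derived strains, the 1 without WSB/EiJ. Over alternatives other than leaving out 1 array or strain, counts among the 34 other complement genes ranged from 1 to 4 in the BXD panel, 1 to 5 in the CXB panel, 2 to 20 among inbred strains, 0 to 3 for BALB and 0 to 3 for DBA/2J. Over all probe sets, BXD arrays alone gave 3773 strain effects (3129 in the shared fit), CXB arrays alone 492 (1890) and inbred arrays alone 4835 (19600). Of 197 RMA columns 4 matched another array's PDNN scores better than their own: those labelled C57BL/6J replicates 1, 2 and 3, which matched BALB/cJ, and BXD14 replicate 2. With them, the RMA value of a contrast that uses C57BL/6J cannot test a call. Without them the DBA/2J and hybrid contrasts have no RMA value, and the BALB contrast keeps only C57BL/6ByJ on its C57BL/6 side. For pairs formed by replicate number, no paired analysis was possible because the numbers were given in accession order and pair no samples across strains; the sex comparison has strain as a term and so was made within strains.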

Other observations

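Choroid plexus markers varied over the BXD strains as well. There 6 of the 7 listed genes, Folr1, Kl, Kcnj13, Clic6, Aqp1 and Otx2, had a strain effect that passed (limma adjusted p from 3.7e-05 to 0.00208). This was 85.7% of the list, against 6.95% of all probe sets, and Ttr did not pass (limma adjusted p = 0.226). In the CXB panel 0 of the 7 passed (against 4.2% of all), and among inbred strains 2 (28.6%, against 43.5% of all). The list's mean spanned 7.83 to 9.30 over BXD strains and 8.11 to 8.58 over the 4 wild-derived strains. Among microglial markers Csf1r alone passed in the BXD panel (adjusted p = 0.0109). C1ql2, a marker of dentate granule neurons whose product resembles C1q in its globular domain and is no complement component, had a higher intraclass correlation over BXD strains, 0.840 (adjusted p = 1.5e-23), than any member of the complement lists.

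The C4a/C4b probe set gave the highest strain values of the CXB and inbred panels at nearly one level: 9.23 in CXB7 and 9.24 in NZO/HlLtJ, with 9.25 in BXD73a.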
